A study of Mus musculus with 4 samples.

Results

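Thrsp and Mid1ip1 encode the members of the Spot14 family, small proteins without a known catalytic activity that act on fatty acid synthesis. Both genes were taken by symbol from a table of liver transcripts, in which they held 3 of 33170 transcript rows and were 2 of 23920 genes. The values of the rows of a gene were summed, so that each gene had 1 value per library. The question was how far each of them depends on SREBP1c in the refed liver.

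The liver RNA came from SREBP1c knockout mice (KO, 2 libraries) and from wild-type mice (WT, 2 libraries), all male, 12 weeks old and of the C57BL/6 strain. All mice had fasted for 24 h and had then been refed for 12 h, so no group shows the fasted level. The labels do not say how the knockout allele was made, in which cells it acts, or that each library came from another animal, so the p-values measure the spread between these samples only, which may be technical. The bulk liver tissue was not separated into cell types, and fewer cells of a type cannot be told apart from less RNA per cell. Levels are given in FPKM, fragments per kilobase of transcript and per a fixed number of mapped fragments, which corrects for transcript length.

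Thrsp, also called Spot14, was named for its response to thyroid hormone in liver, where carbohydrate feeding also raises it, and it is abundant in lipogenic tissues such as liver, fat and lactating mammary gland. Mid1ip1, also called MIG12 or Spot14-related, was first known as a partner of the microtubule-binding ubiquitin ligase MID1. Its protein binds acetyl-CoA carboxylase, which makes malonyl-CoA for fatty acid synthase, and promotes the assembly of that enzyme into active polymers. The Thrsp protein can pair with the Mid1ip1 protein and modify this effect. SREBP1c, one of the products of Srebf1, is the transcription factor through which insulin raises the lipogenic genes of liver.

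Thrsp lies on the minus strand of chromosome 7 (97412933 to 97417550, RefSeq on GRCm38.p6, the assembly named mm10 in genome browsers). Its transcript, NM_009381, has 2 exons, and the coding sequence of 150 codons is contained in the first exon. Mid1ip1 lies on the plus strand of chromosome X (10717365 to 10719702). Its transcripts NM_026524 and NM_001166635 also have 2 exons each and share the same coding sequence of 182 codons, which lies in the second exon. In GENCODE M21 these transcripts differ only in where the second exon begins, at 10717987 in NM_026524 and at 10717984 in NM_001166635. Only fragments across that junction can tell these transcripts apart, since the difference is 3 bases of 5′ untranslated region. The antisense gene Gm14493 (X, 10717473 to 10718710) overlaps Mid1ip1 and has no row of its own in the table. Whether fragments were counted by strand is not given in the sources used here, so fragments of Gm14493 cannot be told apart from those of Mid1ip1.

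The 250 bases before the RefSeq start of each gene are shown because SREBP1c acts on promoters, and in the rat the Thrsp promoter is known to bind SREBP1c beside a CCAAT box. Capitals mark matches to the 7 motifs listed after the sequences. GENCODE places the start of Thrsp 180 bases upstream of the RefSeq start, inside this window. By the GENCODE start, all marked stretches of the Thrsp window lie within the first exon, not before it.
Thrsp, chr7:97417551-97417800, minus strand: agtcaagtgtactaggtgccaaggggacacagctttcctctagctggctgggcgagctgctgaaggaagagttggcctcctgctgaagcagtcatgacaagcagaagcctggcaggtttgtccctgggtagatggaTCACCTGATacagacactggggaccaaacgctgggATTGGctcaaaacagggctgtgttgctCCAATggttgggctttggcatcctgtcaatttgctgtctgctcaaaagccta
Mid1ip1, chrX:10717115-10717364, plus strand: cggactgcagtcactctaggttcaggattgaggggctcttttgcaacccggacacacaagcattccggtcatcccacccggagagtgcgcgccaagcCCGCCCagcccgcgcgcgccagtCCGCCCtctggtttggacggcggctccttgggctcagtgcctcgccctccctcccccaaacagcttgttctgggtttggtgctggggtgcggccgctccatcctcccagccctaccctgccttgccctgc

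The windows held different motifs, each searched on both strands in 32851 RefSeq windows of this length. Thrsp had 2 CCAAT boxes (CCAAT), which are contacted by the factor NF-Y. One began at base −79 from the start, on the minus strand, and the other at base −52, on the plus strand, and 33.8% of all windows held at least 1. Thrsp also had the letters TCNCCTGAT, a second form of the sterol element that was added to the search after the Thrsp window had been read, at base −114. This form was present in 0.664% of windows. Mid1ip1 had none of these and instead had 2 GC boxes (GGGCGG, in 32.7% of windows), the letters bound by the factor SP1. Neither window held the first form of the sterol element (TCACNCCAC, 1.05% of windows), an E box (CACGTG, 6.02%), a TATA box (TATAAA, 12.4%) or a nuclear receptor motif (AGGTCA, 14.0%). The Mid1ip1 window had 17 CpG pairs and 66.8% G and C, against 2 CpG pairs and 53.6% in the Thrsp window and medians of 6 and 52.4% over all windows. A match to letters is not a binding site, and binding was not measured here.

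Thrsp was the gene of the pair with the larger difference. It had 81.8 and 32.4 FPKM in KO livers, against 450.3 and 188.4 FPKM in WT livers. Both KO livers lay below both WT livers, as they did in 16.4% of all genes tested. The KO mean was 17.9% of the WT mean (57.1 ± 35.0 FPKM in KO and 319.0 ± 185.0 FPKM in WT, SD, n = 2 each). Within a genotype the libraries also lay far apart, the lower KO library at 39.6% of the higher and the lower WT library at 41.8% of the higher. Each of the 4 possible quotients of a KO over a WT library lay between 0.0719 and 0.434. The log2 difference, KO minus WT on log2(FPKM + 1), was −2.48 with a standard error of 0.54 and a 95% interval of −3.79 to −1.16. It did not pass the threshold of 0.05 (limma adjusted p = 0.326 over 9820 genes with a mean of at least 1 FPKM). By size this difference was the 8th most negative of the 9820, while by p Thrsp stood at place 108.

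**Figure D1:**
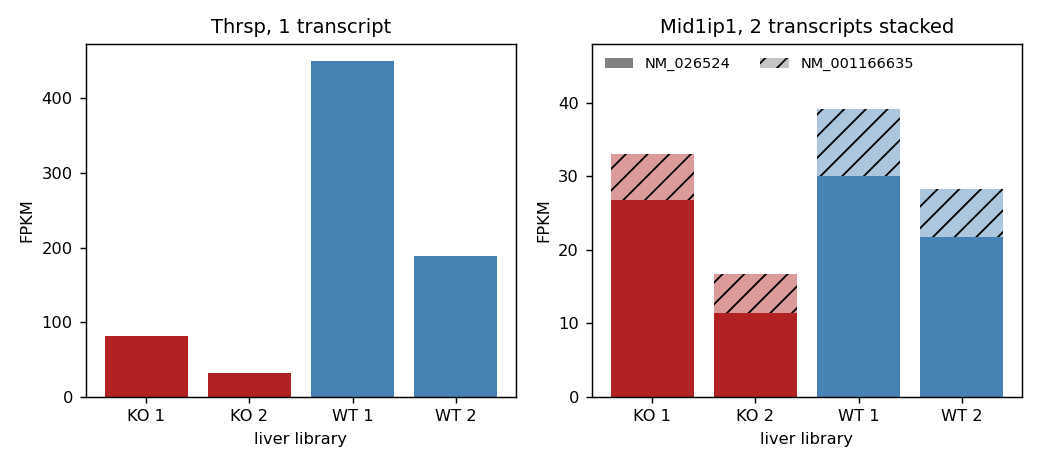
FPKM of Thrsp (left) and Mid1ip1 (right) in each liver library, KO in red and WT in blue, with the 2 Mid1ip1 transcripts stacked. The KO bars of Thrsp, at 81.8 and 32.4 FPKM, stand below both WT bars, while the KO bars of Mid1ip1, at 33.1 and 16.7 FPKM, lie on both sides of the lower WT bar at 28.2 FPKM.

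Thrsp is an abundant liver transcript, and it stayed one in KO livers. In order of level among the genes tested it held places 926 and 1805 in KO livers, against places 176 and 451 in WT livers. Its level was higher than that of 90.6% and 81.6% of genes in KO livers and of 98.2% and 95.4% in WT livers.

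Mid1ip1 overlapped between the genotypes. It had 33.1 and 16.7 FPKM in KO livers, against 39.2 and 28.2 FPKM in WT livers (24.9 ± 11.6 FPKM in KO and 33.7 ± 7.77 FPKM in WT, SD, n = 2 each). KO replicate 1 lay between the WT libraries, and only KO replicate 2 lay below both. The KO mean was 73.8% of the WT mean, and the quotients of a KO over a WT library ran from 0.425 to 1.17. The log2 difference of −0.48 (SE 0.32, 95% interval −1.27 to 0.30) did not pass (limma adjusted p = 0.759). The KO libraries themselves lay far apart, the lower at 50.5% of the higher, against 72.0% in WT.

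The transcript rows of Mid1ip1 were each lower on average in KO livers. NM_026524 had 26.8 and 11.4 FPKM in KO livers and 30.0 and 21.8 FPKM in WT livers (log2 difference −0.52, limma adjusted p = 0.825 with rows as deposited). NM_001166635 had 6.26 and 5.27 FPKM in KO livers and 9.16 and 6.46 FPKM in WT livers (−0.37, adjusted p = 0.748), and in this weaker row alone the genotypes did not overlap. NM_026524 held 81.1% and 68.4% of the gene's FPKM in KO livers, against 76.6% and 77.1% in WT livers. With 3 bases to separate the rows, their share depends on how the authors' program divided common fragments.

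A single library decided how large either difference was. Without KO replicate 1, Thrsp differed by −3.13 (limma adjusted p = 0.00663) and Mid1ip1 by −0.96 (adjusted p = 0.0334), and both passed. Without KO replicate 2, Thrsp differed by −1.82 (adjusted p = 0.0898) and Mid1ip1 by −0.009 (adjusted p = 0.996). Leaving out WT replicate 1 gave −1.85 for Thrsp and −0.25 for Mid1ip1, and leaving out WT replicate 2 gave −3.10 and −0.71. In each of these fits the lone library of a genotype is assumed to vary like the pair of the other. Thrsp thus stayed lower in KO whichever library was left out, while Mid1ip1 came close to 0 without KO replicate 2.

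**Figure D2:**
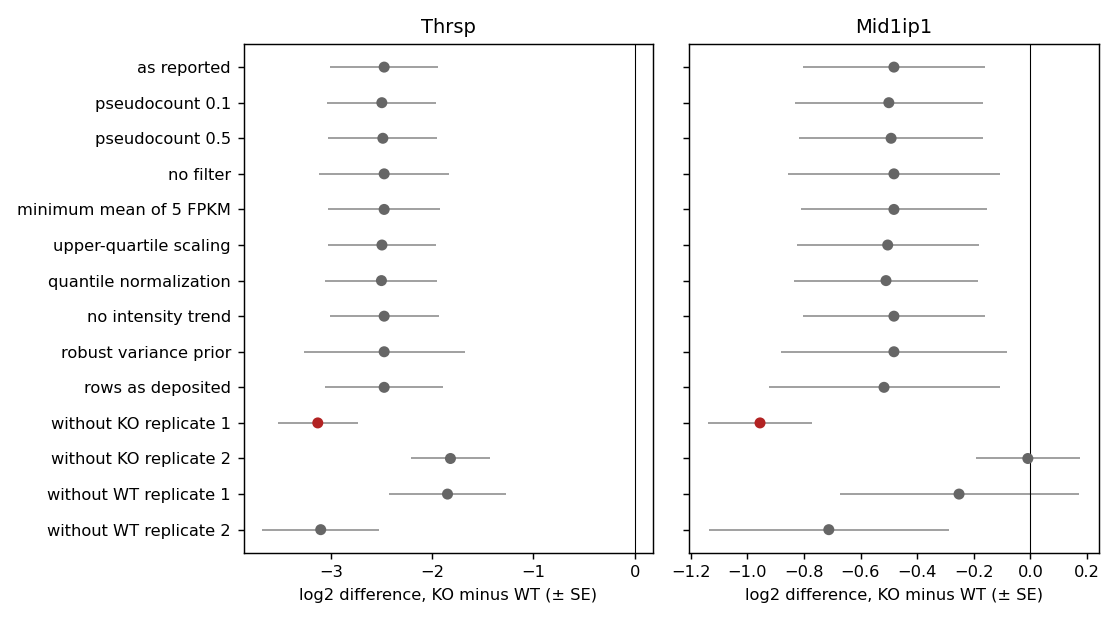
Log2 difference, KO minus WT, of Thrsp (left) and Mid1ip1 (right) as reported and under alternative settings, with the standard error as a bar; red points have a limma adjusted p below 0.05. Thrsp stays between −3.13 and −1.82, whereas Mid1ip1 reaches −0.96 when KO replicate 1 is left out and −0.009 when KO replicate 2 is. The settings with the replicate number as a block, given in the last section, and with a threshold of 0.1 are not drawn.

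The ratio of Thrsp to Mid1ip1 within a library removes any scaling of the library as a whole. In KO livers there were 2.48 and 1.94 Thrsp FPKM for each Mid1ip1 FPKM, against 11.5 and 6.68 in WT livers. The genotypes did not overlap. With 2 libraries against 2 the exact permutation test on the log2 ratio gives a two-sided p of 0.333, the smallest it allows.

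Srebf1, the targeted gene, had 8.63 and 6.97 FPKM in KO livers, against 63.7 and 58.2 FPKM in WT livers (log2 difference −2.82, SE 0.13, limma adjusted p = 0.00172). Its single row (NM_011480) does not separate SREBP1c from SREBP1a. Over all genes, 6 were lower (0.0611% of those tested) and 1 was higher (0.0102%) in KO past the limma threshold, and Thrsp and Mid1ip1 were not among them. That count became 306 without KO replicate 1, 117 without KO replicate 2, 1 without WT replicate 1 and 4 without WT replicate 2. Srebf1 itself had an adjusted p of 0.136 without WT replicate 1 and 0.0923 without WT replicate 2.

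**Figure D3:**
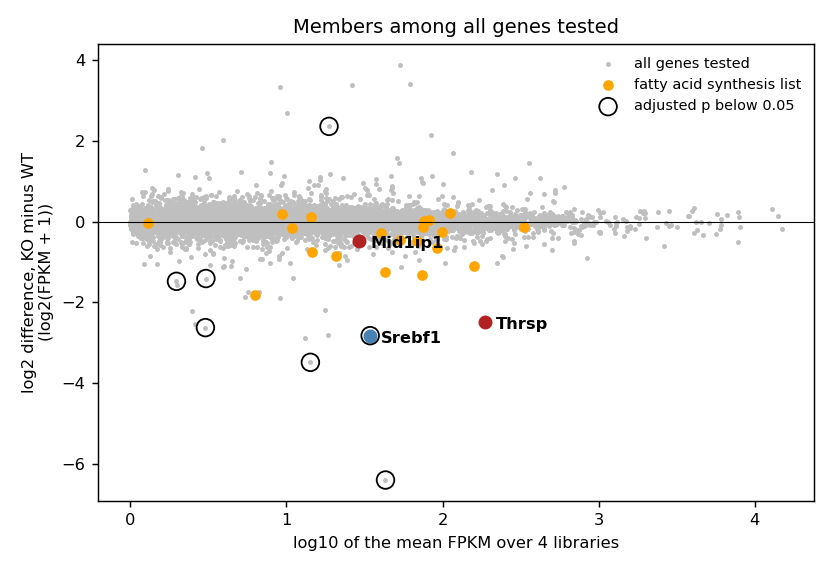
Log2 difference, KO minus WT, against the log10 of the mean FPKM for the 9820 genes tested, with the fatty acid synthesis list in orange and a ring around the 7 genes past the limma threshold. Thrsp lies at −2.48, near Srebf1 at −2.82 but without a ring, and Mid1ip1 at −0.48 lies among the fatty acid synthesis genes.

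The enzymes on which the Spot14 family acts were measured beside it. Acaca, the cytosolic acetyl-CoA carboxylase, had 12.9 and 8.01 FPKM in KO livers and 24.4 and 13.0 FPKM in WT livers (log2 difference −0.76, limma adjusted p = 0.644). Acacb, the mitochondrial form, whose malonyl-CoA restrains fatty acid oxidation, had 2.47 and 1.93 FPKM in KO livers and 12.2 and 8.72 FPKM in WT livers (−1.83, adjusted p = 0.0544). Fasn, fatty acid synthase, had 67.2 and 22.4 FPKM in KO livers and 135.7 and 72.0 FPKM in WT livers (−1.32, adjusted p = 0.635). In all of these genes the KO livers lay below the WT livers without overlap, as in 16.4% of all genes, and none passed the threshold. For Acaca the gap was narrow, at 12.9 FPKM in KO replicate 1 and 13.0 FPKM in WT replicate 2.

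Upstream of them, Acly, which makes cytosolic acetyl-CoA from citrate, had 53.3 and 37.3 FPKM in KO livers and 68.0 and 55.2 FPKM in WT livers. Downstream, Scd1, which makes monounsaturated fatty acids, had 102.2 and 92.2 FPKM in KO livers and 290.7 and 149.2 FPKM in WT livers (log2 difference −1.09, adjusted p = 0.465). Gpam, the acyltransferase that begins glycerolipid synthesis, had 27.8 and 22.0 FPKM in KO livers and 69.1 and 51.5 FPKM in WT livers (−1.24, adjusted p = 0.165), and Acsl5, a long-chain acyl-CoA synthetase, 76.8 and 66.3 FPKM in KO livers and 121.8 and 103.4 FPKM in WT livers (−0.65, adjusted p = 0.32). None of these genes overlapped between the genotypes, and 16.4% of all genes lay lower in KO livers without overlap. Gpam and Acsl5 were named for a small p, a choice that favours genes without overlap. Me1 and Elovl6, from the same pathway, did overlap. Acly, Scd1, Gpam and Acsl5 were each lowest in KO replicate 2 and highest in WT replicate 1, as Thrsp was.

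The list of fatty acid synthesis left out the Spot14 pair and also held the acyltransferase gene Gpam and the acyl-CoA synthetase genes Acsl3 and Acsl5. Of its 20 tested genes limma called none in either direction over all genes. Gpam and Acsl5 were among the 5 that were lower at an unadjusted p below 0.05 (3.25% of all genes). In 8 of the 20, again with Gpam and Acsl5, both KO libraries lay below both WT libraries, against 16.4% of all genes. In 2 both lay above, against 22.4% of all genes. The median log2 difference was −0.26, against 0.02 over all genes. The list ran from −1.83 for Acacb to 0.21 for the citrate carrier gene Slc25a1, so none of its members had as negative a difference as Thrsp, and 8 of the 20 had a more negative one than Mid1ip1. Relative to the WT mean its median was −0.15 for the first KO replicate and −0.63 for the second, and 14 of the 20 genes were lowest in KO replicate 2, as both Thrsp and Mid1ip1 were. KO replicate 2 was the lowest library for 26.9% of all genes.

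**Figure D4:**
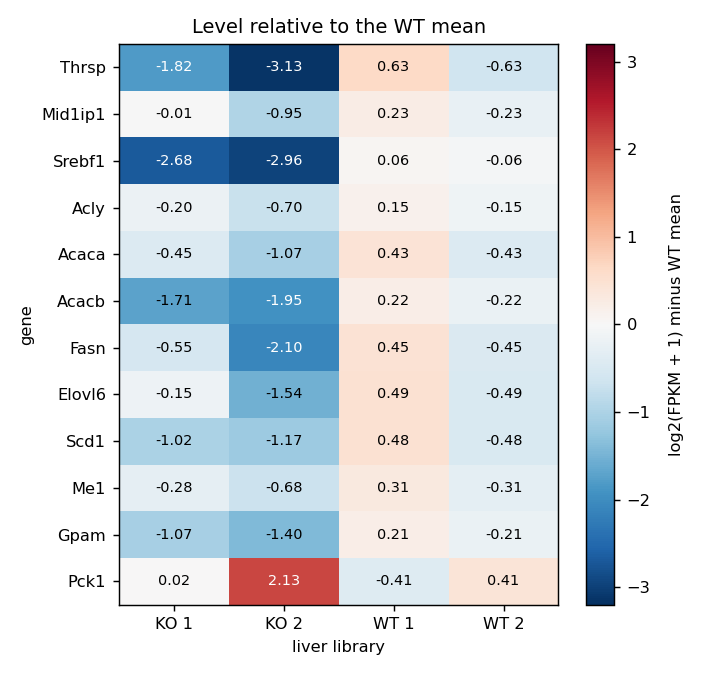
Level of Thrsp, Mid1ip1, Srebf1, 8 lipid synthesis genes and Pck1 in each library, as log2(FPKM + 1) minus the mean of the WT libraries (blue lower, red higher). Thrsp was at −1.82 and −3.13 in the KO libraries, Mid1ip1 at −0.009 and −0.95, and Pck1 reached 2.13 in KO replicate 2.

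Thrsp was also lower in KO livers when set against Fasn. For each FPKM of Fasn there were 1.22 and 1.45 FPKM of Thrsp in KO livers, against 3.32 and 2.62 in WT livers. Mid1ip1 was higher relative to Fasn in KO livers, with 0.492 and 0.746 FPKM for each FPKM of Fasn in KO livers and 0.289 and 0.392 in WT livers. Relative to its binding partner Acaca, Mid1ip1 stood at 2.57 and 2.08 in KO livers and 1.61 and 2.16 in WT livers, and these overlapped. Set against Srebf1 itself, Thrsp also overlapped between the genotypes, at 9.48 and 4.64 FPKM for each FPKM of Srebf1 in KO livers and 7.07 and 3.24 in WT livers.

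Regulators of lipogenesis, among them factors that act on Thrsp, had a median close to 0. Of 20 such genes tested, only Srebf1, the targeted gene itself, passed the limma threshold. Over all genes 0.0611% were called lower and 0.0102% higher. In the list 8 had a negative and 12 a positive difference, against 4459 and 5361 of all 9820 genes. The median was 0.05, against 0.02 over all genes. Mlxipl, which encodes the carbohydrate-responsive factor ChREBP, had 42.8 and 32.5 FPKM in KO livers and 49.2 and 38.1 FPKM in WT livers (log2 difference −0.21, adjusted p = 0.822). Nr1h3, the oxysterol receptor LXRα, had 87.8 and 71.8 FPKM in KO livers and 74.0 and 73.3 FPKM in WT livers (0.11, adjusted p = 0.879). Both genes overlapped between the genotypes.

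The known targets of ChREBP, which share the response of Thrsp to dietary sugar, had a negative median. Of 13 tested genes none passed the limma threshold in either direction, 5 were lower at an unadjusted p below 0.05 (3.25% of all genes), 8 were lower in KO livers without overlap (16.4% of all genes), and the median log2 difference was −0.29, against 0.02 over all genes. Pklr, the pyruvate kinase of liver, had 38.8 and 27.4 FPKM in KO livers and 95.4 and 53.7 FPKM in WT livers (−1.11, adjusted p = 0.436). Rgs16, a regulator of G-protein signalling, had 0.495 and 0.418 FPKM in KO livers and 4.90 and 2.14 FPKM in WT livers (−1.57, adjusted p = 0.245). Slc2a2, the glucose transporter GLUT2, had 57.9 and 38.9 FPKM in KO livers and 92.8 and 92.1 FPKM in WT livers (−0.95, adjusted p = 0.298). Khk, ketohexokinase of fructose metabolism, had 302.1 and 234.0 FPKM in KO livers and 465.5 and 357.7 FPKM in WT livers (−0.62, adjusted p = 0.537). These genes were named for the smallest p in the list, so their low p follows from that choice. Without KO replicate 1 the log2 differences were −1.355 for Pklr, −1.603 for Rgs16, −1.228 for Slc2a2 and −0.799 for Khk. Without KO replicate 2 they were −0.867, −1.526, −0.666 and −0.432 in the same order.

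Genes of thyroid hormone supply and response, the setting in which Thrsp was named, had a median close to 0. Of 11 tested genes limma called none, none had an unadjusted p below 0.05, and the median log2 difference was 0.00. Thrb, the main thyroid hormone receptor of liver, had 5.27 and 5.62 FPKM in KO livers and 6.92 and 6.01 FPKM in WT livers (−0.21, adjusted p = 0.711). Dio1, the deiodinase that a high thyroid hormone level induces, had 59.0 and 91.4 FPKM in KO livers and 56.3 and 52.7 FPKM in WT livers (0.42, adjusted p = 0.684). Slc16a10, a transporter of thyroid hormone, had 16.7 and 16.9 FPKM in KO livers and 15.1 and 13.6 FPKM in WT livers. Me1, malic enzyme, which makes NADPH for lipogenesis and also responds to thyroid hormone, had 64.6 and 48.9 FPKM in KO livers and 98.0 and 63.5 FPKM in WT livers.

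The partners that gave Mid1ip1 its name were measured too. Mid1 had 1.31 and 2.82 FPKM in KO livers, against 0.936 and 0.934 FPKM in WT livers (log2 difference 0.62, adjusted p = 0.625), and passed without KO replicate 1 (0.98, adjusted p = 0.0102). Igbp1, the α4 protein that joins MID1 to protein phosphatase 2A, had 32.4 and 29.9 FPKM in KO livers and 33.5 and 31.1 FPKM in WT livers. Ppp2ca, a catalytic subunit of that phosphatase, had 59.1 and 57.0 FPKM in KO livers and 62.0 and 55.5 FPKM in WT livers, and the other catalytic subunit, Ppp2cb, 14.2 and 15.1 FPKM in KO livers and 15.3 and 12.5 FPKM in WT livers. Of the 6 genes tested in this list limma called none, and the median was −0.01. Only 1, Mid1 with its low WT values, was higher at an unadjusted p below 0.05 (4.5% of all genes).

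**Figure D5:**
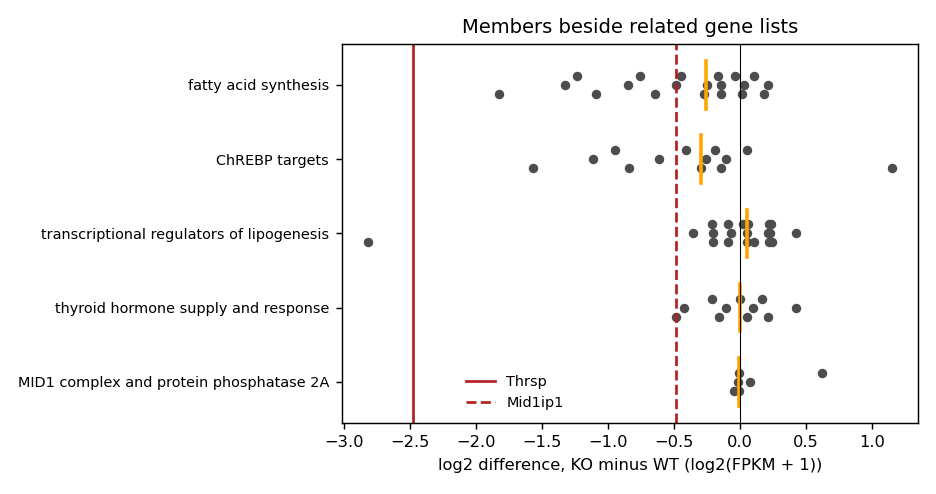
Log2 difference, KO minus WT, of each tested gene in 5 related lists (points), with the list median in orange, Thrsp as a solid and Mid1ip1 as a dashed red line. No list member except Srebf1 lies beyond Thrsp at −2.48, and the medians run from −0.29 for ChREBP targets to 0.05 for transcriptional regulators.

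The nearest expressed genes around the Spot14 loci were read as a comparison, although not all of them lay close by. By start position, Prcp lay at −4538 kb from Thrsp. Around Mid1ip1 the nearest was Tspan7 at −232 kb, and the starts ran from −1445 kb for Xk to 2354 kb for Usp9x. The 10 nearest expressed genes around Thrsp, 5 on each side, had log2 differences from −0.25 to 0.17 and a median of −0.07. Ndufc2, a subunit of mitochondrial complex I and the nearest of them, had 82.3 and 67.1 FPKM in KO livers and 81.8 and 96.1 FPKM in WT livers. The 10 around Mid1ip1 ran from −0.20 for Otc, ornithine transcarbamylase of the urea cycle, to 0.24 for Atp6ap2, a proton pump accessory protein. No neighbour of either gene passed the limma threshold or had an unadjusted p below 0.05. Over all genes, 3.25% were lower and 4.5% higher at that unadjusted p.

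The genes most like each member over the 4 libraries were found by the root mean square distance between profiles of log2(FPKM + 1), each centred on its own mean, among 4046 other genes with a mean of at least 10 FPKM. The nearest to Thrsp was Srebf1 (distance 0.57 log2 units), followed by Fasn (0.60), Pttg1 (0.75), Pklr (0.76) and Gstm3 (0.76), a glutathione transferase gene. Pttg1, which encodes securin, had 1.67 and 1.35 FPKM in KO livers and 28.4 and 25.5 FPKM in WT livers, a larger difference than that of Thrsp but without its spread inside each genotype. Gstm3 had 118.2 and 30.9 FPKM in KO livers and 179.7 and 84.6 FPKM in WT livers, so that its KO and WT values overlapped. All of these genes were chosen for likeness to Thrsp in these same 4 libraries. Their lower means in KO livers follow from that choice and add no evidence.

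Mid1ip1 had smaller distances to its nearest genes. The measure is not scaled to a gene's own spread, and Mid1ip1 varied less over the libraries than Thrsp. The distances of the 2 members therefore cannot be compared. The nearest was Serpina12, which encodes the secreted serpin vaspin (distance 0.04; 16.0 and 8.43 FPKM in KO livers and 20.0 and 14.6 FPKM in WT livers). Then came the glutathione transferase gene Gstp2 (0.06), Abhd5, the coactivator of the triglyceride lipase ATGL (0.07), the male-biased fatty acid hydroxylase gene Cyp4a12a (0.08) and the helix-loop-helix gene Hes6 (0.09). All of them had KO replicate 1 between the WT libraries and KO replicate 2 below both. None passed the limma threshold, with log2 differences from −0.61 for Hes6 to −0.37 for Cyp4a12a. They were chosen for likeness to Mid1ip1 in these same 4 libraries. The shared order and the like difference follow from that choice and add no evidence.

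KO replicate 2 stood apart in other genes as well, and their part in the results on Thrsp and Mid1ip1 was not tested. The summed level of 10 acute phase genes was 5982 and 17090 FPKM in KO livers, against 7271 and 9043 FPKM in WT livers. Mt2, a metallothionein, had 8.67 and 230.3 FPKM in KO livers, against 3.74 and 3.29 FPKM in WT livers, and Lcn2, a siderophore-binding lipocalin, 7.19 and 171.9 FPKM in KO livers and 8.99 and 15.1 FPKM in WT livers. Saa3, a serum amyloid gene, had 4.01 and 20.5 FPKM in KO livers and 3.66 and 3.40 FPKM in WT livers, and Mt1, the other metallothionein gene measured, 16.1 and 292.3 FPKM in KO livers and 14.6 and 15.7 FPKM in WT livers. All of these were highest in KO replicate 2, the library in which Thrsp and Mid1ip1 were lowest.

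Genes that follow the fed state differed between the KO livers too. Pck1, the gluconeogenic enzyme that insulin lowers, had 229.1 and 994.2 FPKM in KO livers, against 170.0 and 300.0 FPKM in WT livers. Angptl4 and Fgf21, secreted proteins of the fasting response, had 17.5 and 46.5 FPKM and 0.956 and 5.71 FPKM in KO livers, against 9.47 and 18.1 FPKM and 1.06 and 0.291 FPKM in WT livers. Pdk4, which blocks pyruvate oxidation in fasting, had 2.15 and 1.62 FPKM in KO livers and 5.15 and 3.11 FPKM in WT livers, and Irs2, the insulin receptor substrate, 2.40 and 2.99 FPKM in KO livers and 3.54 and 3.39 FPKM in WT livers. Of the 9 genes tested in this list and the 10 acute phase genes limma called none, while 1 of the fed-state genes was lower and 1 of the acute phase genes higher at an unadjusted p below 0.05, against 3.25% of all genes lower and 4.5% higher.

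Markers of other cells were read because Thrsp is also abundant in fat. Of the 10 adipocyte genes, 5 were below the filter on low values, among them Adipoq, the adiponectin gene, at 0.0388 and 0.170 FPKM in KO livers and 0.0775 and 0.0850 FPKM in WT livers, and Lep, the leptin gene, listed at 0 throughout. Of the 5 tested limma called none, and 2 were higher at an unadjusted p below 0.05 (4.5% of all genes). These were Cfd, the complement factor adipsin, with 3.83 and 32.1 FPKM in KO livers and 0.437 and 0.120 FPKM in WT livers (adjusted p = 0.406), and the lipid droplet gene Cidec, with 8.41 and 6.75 FPKM in KO livers and 3.09 and 2.23 FPKM in WT livers (adjusted p = 0.135). Among the rest of those tested, Fabp4 and Lipe overlapped between the genotypes (log2 differences 0.27 and −0.09). Pparg was higher in KO livers without overlap (0.52). The sum of all 10 was 46.5 and 69.0 FPKM in KO livers and 34.1 and 25.6 FPKM in WT livers. The hepatocyte markers summed to 19734 and 19304 FPKM in KO livers and 20025 and 22191 FPKM in WT livers. Tf was not found by that symbol. Alb was listed at 0 in all 4, so that a 0 in this table is no sign of a silent gene. The sum does not show Cps1, with 361.8 and 399.6 FPKM in KO livers and 619.5 and 621.3 FPKM in WT livers (limma adjusted p = 0.246). Cps1 was the 1 hepatocyte gene of 8 tested that was lower at an unadjusted p below 0.05 (3.25% of all genes). The sum of 8 Kupffer cell genes was 70.5 and 124.1 FPKM in KO livers and 92.3 and 74.0 FPKM in WT livers, and that of 6 cholangiocyte genes 50.3 and 41.7 FPKM in KO livers and 25.4 and 23.5 FPKM in WT livers. Most of the cholangiocyte sum was 1 gene, Spp1, the osteopontin gene, with 45.5 and 37.0 FPKM in KO livers and 21.3 and 20.2 FPKM in WT livers, and the other 5 were each at 2.23 FPKM or less. The sum of 6 endothelial genes was 53.2 and 63.9 FPKM in KO livers and 47.7 and 50.0 FPKM in WT livers, and that of 8 stellate cell genes 53.0 and 53.2 FPKM in KO livers and 49.1 and 54.3 FPKM in WT livers. Most of the endothelial sum was 1 gene, Clec4g, with 36.0 and 41.3 FPKM in KO livers and 29.5 and 32.1 FPKM in WT livers. Of the 6 endothelial genes, 4 had a positive and 2 a negative log2 difference. The adipocyte, cholangiocyte and endothelial sums were higher in KO livers without overlap. Of the tested genes, 1 of 8 Kupffer cell and 2 of 3 cholangiocyte genes were higher at an unadjusted p below 0.05. So was 1 of 6 endothelial genes, against 4.5% of all genes, and limma called none in these lists. The part of these cells in the results was not tested.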

How the data were processed

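The authors deposited 1 table of FPKM values for 4 liver libraries, with a row per RefSeq transcript, per the file headers. Per the submitters' processing notes, Bowtie and TopHat were used with mm10; which program gave FPKM, from which annotation and with what use of strand, is not given in the sources used here. Groups and replicate numbers come from the sample titles. Rows were summed per gene number; 56 symbols stored as dates were restored through it, and 23847 of 23920 genes matched the RefSeq table of GRCm38.p6, which gave coordinates and promoter windows.

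FPKM keeps no counts. Low values implied 20.7 to 22.9 M (mega) fragments per library, but with GENCODE M21 lengths only 49.4% to 53.2% of them were within 0.1 of a whole number of fragments, so reads were not recovered and no count test was run. At that depth a row of Thrsp or Mid1ip1 stood for roughly 220 to 13169 fragments.

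Differences were tested with limma 3.58.1 (R 4.3.3) on log2(FPKM + 1), with an intensity trend, for genes averaging 1 FPKM or more, and p-values were adjusted by Benjamini and Hochberg's method over all 9820; this scale understates changes of low genes. The fit was tested on simulated data. Gene lists are described by counts and medians. Genes were named by a rule: both members, Srebf1, up to 6 called genes or else the 4 smallest p in each list, 9 lipogenic, receptor and partner genes whatever their result, and the 5 nearest profiles of each member. Slc25a1, Pck1, the neighbours and the markers named were chosen outside it, after their values were seen. The members and lists were chosen with earlier results of these data known. Alternatives changed the pseudocount, filter, scaling, variance settings, summing and threshold, added the replicate number as a block, or left out each library. Tables and figures used python 3.11.15, pandas 2.3.3 and matplotlib 3.10.9.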

Additional observations from a re-analysis of the deposited data

How the results depend on the processing

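Thrsp was lower in KO in all 15 alternatives and Mid1ip1 too, over log2 ranges of −3.13 to −1.82 and −0.96 to −0.009, and with one library left out these were also the extremes. The filter, the variance settings, the block and the threshold leave the log2 difference as it is. Only the rest of the 15 could have changed its sign. Thrsp passed with the replicate number as a block (−2.48, SE 0.11, adjusted p = 0.00137) and without KO replicate 1, and Mid1ip1 only without KO replicate 1; adjusted p otherwise ran up to 0.9996 for both, without WT replicate 1. Titles give the same numbers to both groups but do not say that they mark shared animals or days, and deviations of same-numbered libraries correlated at 0.167 over 9820 genes, so the block rests on a number only. The count of 7 genes past the threshold became 19 with the block, 11 with a pseudocount of 0.1, 15 with a robust prior, 3 with a minimum of 5 FPKM, 4 with quantile normalization, 4 with rows as deposited and 0 without a filter, and ran from 1 to 306 with one library left out. The count of 0 fatty acid synthesis genes became 1 with a pseudocount of 0.1, a robust prior or a threshold of 0.1, 2 with the block, and 0 to 7 with one library left out. Of 549 values for the 37 other genes named, 31 gained and 5 lost the call and 9 changed sign, all 9 with one library left out. In that setting Abhd5 ran from −0.88 to 0.004, Cyp4a12a from −0.82 to 0.074, Igbp1 from −0.10 to 0.007, Lcn2 from −0.63 to 3.77, Nr1h3 from −0.036 to 0.25, Ppp2ca from −0.094 to 0.064 and Ppp2cb from −0.059 to 0.21. The cause was not tested. With 2 libraries a group, an exact permutation test cannot go below 0.333.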
